A study of Mus musculus with 6 samples.

Results

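The replication-dependent histone genes were taken as every gene of the deposited table whose symbol starts with Hist1h, Hist2h, Hist3h or Hist4h, which gave 68 of 24421 genes. RNA was measured by sequencing in 6 libraries made from whole hearts of C57BL6/J mice aged 4 weeks. The groups were Cnot3 RIP (RNA immunoprecipitated with an antibody against Cnot3), control IgG RIP, below IgG RIP (RNA that came down with a control antibody), and Input (RNA of the heart lysate itself), with 2 libraries each, numbered 1 and 2. No genotype other than the strain, no treatment and no sex is given for any group. The labels speak of 2 experiments and do not say whether the libraries of a group came from separate animals, so the tests weigh differences only against how far libraries of a group lay apart, and that distance may be technical.

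Replication-dependent histone mRNAs encode the core histones H2A, H2B, H3 and H4, which form the nucleosome, and the linker histone H1, which binds between nucleosomes. They are made mainly in S phase, when new DNA has to be packaged, and most lack introns and end in a conserved stem-loop in place of a poly(A) tail. Cnot3 belongs to the CCR4-NOT deadenylase, the complex that shortens poly(A) tails. Histone transcripts that end at the stem-loop carry no tail of that kind. Whether the histone RNA read here carried such tails was not measured, and the library kit is not given. The processing machinery includes Slbp, which binds the stem-loop.

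In the GRCm38 annotation (GENCODE release M21) 54 of the 68 genes lay in the Hist1 cluster on chromosome 13, between 21715763 and 23934851, and 10 lay in the Hist2 cluster on chromosome 3. The Hist3 cluster on chromosome 11 held 3 genes, and Hist4h4 stood alone on chromosome 6. By class there were 6 H1, 18 H2A, 19 H2B, 12 H3 and 13 H4 genes. Hist3h2bb-ps is annotated as a processed pseudogene.

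The stem-loop was read from the transcripts of the histone genes themselves, as the 16-base hairpin (a stem of 6 bases and a loop of 4) held by the most members together with its forms that differ from it in up to 3 bases. This gave GGCNCTTNTNAGNGCC, with N where the forms differ, and it was searched in the sense strand of all annotated transcripts. It was found in 44 of the 68 genes (64.7%), from which it was built, and in 7 of 21810 other protein-coding genes (0.0321%). The sequences below are shown because they belong to the genes on which the comparisons turn, and because they show which bases vary between members. Capitals mark the stem-loop, and 5 bases are shown on each side in lower case, 5′ to 3′ on the strand of the gene.
Hist3h2a: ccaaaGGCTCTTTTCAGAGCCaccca
Hist1h3f: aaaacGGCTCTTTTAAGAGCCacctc
Hist1h4d: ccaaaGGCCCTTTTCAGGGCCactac
Hist2h4: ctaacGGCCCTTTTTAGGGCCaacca
Hist1h1c: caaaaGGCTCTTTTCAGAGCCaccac
Hist1h1d: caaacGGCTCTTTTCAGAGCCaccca

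These windows lie, on GRCm38, at chr11:58955167-58955192 (plus strand) for Hist3h2a, chr13:23544927-23544952 (plus) for Hist1h3f and chr13:23581945-23581970 (plus) for Hist1h4d. Those of the other genes shown lie at chr3:96262934-96262959 (minus) for Hist2h4, chr13:23739507-23739532 (plus) for Hist1h1c and chr13:23555782-23555807 (plus) for Hist1h1d. Each lies in the only exon of its gene. The stem-loop took 7 forms over the 44 genes. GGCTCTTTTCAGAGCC stood in 26 of them, among which are the H1 genes Hist1h1c and Hist1h1d and the H2A gene Hist3h2a. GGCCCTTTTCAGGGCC, the form of Hist1h4d, stood in 7, and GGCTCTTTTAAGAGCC, the form of Hist1h3f, stood in 6. The annotated transcript ran on past the stem-loop for 1643 bases in Hist3h2a, 840 bases in Hist1h1c and 4884 bases in Hist1h1d. A match says only that these letters are in the annotated transcript, and the RNA ends actually sequenced were not measured. The lack of a match does not show that a gene has no stem-loop. Some annotated transcripts without one are short, with 312 bases in Hist1h4k and 381 in Hist2h2bb, and may end before it. The longer Hist2h2be, with 2620 bases, held none either.

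Total reads recovered from the deposited CPM (reads of a gene relative to all reads of its library) were between 15713318 and 33479580 per library. Rn45s, the precursor of ribosomal RNA, took 53.1% and 51.1% of the reads in Cnot3 RIP, 60.2% and 59.4% in IgG RIP and 78.3% and 79.2% in Input. Levels below are therefore given as CPM scaled with TMM factors, which set the bulk of the genes to the same level in every library. All 7 cardiomyocyte markers had reads in every library, with summed levels from 17604 to 34649 scaled CPM, as the tissue label says. The globin markers of red cells, Hba-a1, Hba-a2, Hbb-bs and Hbb-bt, were listed at 0 in all 6 libraries. Of the same list of red cell and platelet markers, Alas2 had 129 to 384 reads per library, Pf4 23 to 65 and Ppbp 5 to 35. The globin values of 0 therefore do not show that red cell RNA was absent. Germ cell markers Ddx4 and Dazl had at most 6 reads in any library, while Sycp3 had 59 to 125.

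Histone transcripts were a small share of each library. Of the 68 genes, 18 had at least 0.5 CPM in 2 columns of the table, 38 had reads but stayed under that level, and 12 had no read in any library. The 18 genes were 5 of the 6 H1 genes, 2 of 18 H2A genes, 4 of 19 H2B genes, 2 of 12 H3 genes and 5 of 13 H4 genes. The 38 low genes had between 1 and 49 reads over all 6 libraries, with a median of 11. The highest single value among them was 1.02 CPM, for Hist1h3e in Input 1. The one H1 gene outside the 18 was Hist1h1t, the testis linker histone, with 2 reads in all, and the testis histone genes Hist1h2ba and Hist1h2aa had 1 read and none.

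Summed over the 68 genes, histone reads numbered 1152 and 692 in Cnot3 RIP, 466 and 1003 in IgG RIP and 757 and 1099 in Input. On the scaled level the sums were 41.0 and 20.7 CPM in Cnot3 RIP, 26.9 and 45.4 in IgG RIP and 69.9 and 53.1 in Input. Both RIP groups lay below both Input libraries in these sums, and the RIP groups overlapped each other. The means were 30.9 ± 14.3 CPM in Cnot3 RIP, 36.2 ± 13.1 in IgG RIP and 61.5 ± 11.9 in Input (SD, n = 2 each). The log2 ratio of the means was -0.99 for Cnot3 RIP against Input and -0.77 for IgG RIP against Input on the scaled level, but 0.11 and 0.05 on the deposited CPM, where the median of all genes tested itself stood at 1.02 and 0.70. Changes are therefore read relative to the median of all genes. In bulk samples, fewer cells of a type and less RNA per cell cannot be told apart.

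**Figure D1:**
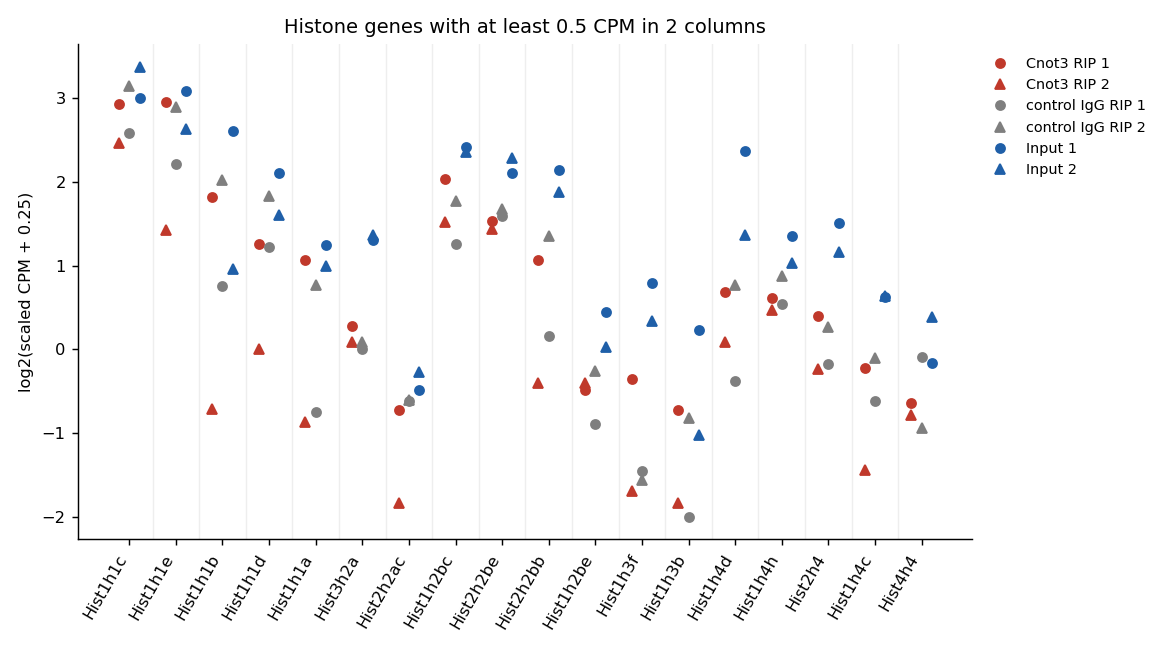
Levels of the 18 histone genes with at least 0.5 CPM in 2 columns, as log2 of scaled CPM plus 0.25 (vertical axis), one point per library, grouped by class from H1 at the left to H4 at the right. On this scale the blue Input points stand above the red Cnot3 RIP points for most genes, while red and grey IgG RIP points are mixed; on the deposited CPM the order of Cnot3 RIP and Input means turned round for 6 of the 16 genes tested.

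The H1 genes were the most read class. H1 genes took 53.9% and 43.8% of histone reads in Cnot3 RIP, 52.1% and 53.5% in IgG RIP and 40.2% and 42.1% in Input, shares that do not depend on any scaling between libraries. Both IgG RIP libraries stood above both Input libraries. Cnot3 RIP 1 stood with them, while Cnot3 RIP 2, with an exact Clopper-Pearson interval from 40.1% to 47.6%, overlapped the Input intervals (36.6% to 43.7% and 39.2% to 45.1%). Hist1h1c and Hist1h1e together held 36.2% and 37.0% of histone reads in Cnot3 RIP, 37.8% and 34.7% in IgG RIP and 22.9% and 30.3% in Input. The ratio of H1 to core histone reads was 1.17 and 0.779 in Cnot3 RIP, 1.09 and 1.15 in IgG RIP and 0.671 and 0.728 in Input. All 4 RIP libraries lay above both Input libraries in this ratio. For either RIP group alone against Input, with 2 libraries against 2, an exact two-sided permutation test cannot give a p under 0.333.

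The classes that form the H3-H4 tetramer took a smaller share in the RIP libraries than in Input. H4 genes took 12.7% and 15.6% of histone reads in Cnot3 RIP, 13.5% and 12.9% in IgG RIP and 19.4% and 17.4% in Input. H3 genes took 4.60% and 2.89% in Cnot3 RIP, 2.36% and 4.59% in IgG RIP and 10.7% and 5.73% in Input. Neither share overlapped between the RIP libraries and Input, but intervals did. For H4 that of Cnot3 RIP 2 (13.0% to 18.5%) reached that of Input 2 (15.2% to 19.8%), and for H3 that of Cnot3 RIP 1 (3.46% to 5.97%) reached that of Input 2 (4.43% to 7.28%). H2B genes took 24.3% and 31.5% in Cnot3 RIP, 24.9% and 23.4% in IgG RIP and 24.4% and 27.8% in Input. H2A genes took 4.51% and 6.21% in Cnot3 RIP, 7.08% and 5.58% in IgG RIP and 5.28% and 6.92% in Input. These last shares overlapped between all groups. Such intervals take in counting error within 1 library alone and not the spread between libraries. PCR copies of 1 molecule cannot be told from separate molecules here, so the counting error itself may be larger than shown.

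**Figure D2:**
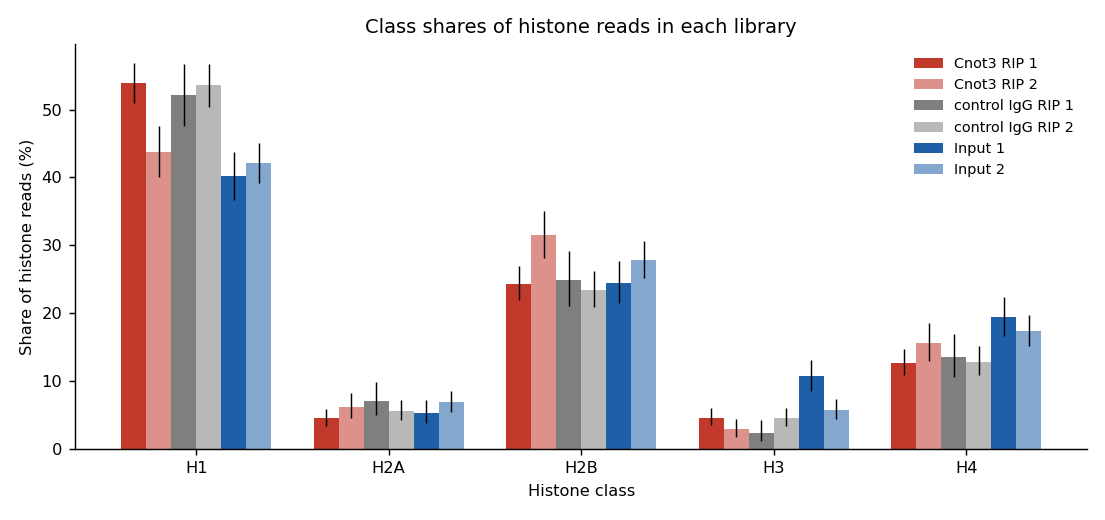
Share of the reads of the 68 histone genes that fell in each class (vertical axis, percent) in each library, with exact 95% Clopper-Pearson intervals as bars. H1 takes 43.8% to 53.9% in the 4 RIP libraries and 40.2% and 42.1% in Input, and H4 takes at most 15.6% in the RIP libraries and 17.4% and 19.4% in Input.

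In summed scaled CPM the distance from Input differed by class in the same direction as these shares. Both come from the same reads, so the sums restate the shares and are not a second measurement. The log2 ratio of Cnot3 RIP to Input was -0.69 for H1, -0.95 for H2B, -1.23 for H2A, -1.43 for H4 and -2.08 for H3. For IgG RIP against Input it was -0.40 for H1, -0.88 for H2B, -0.73 for H2A, -1.27 for H4 and -1.95 for H3. Cnot3 RIP and IgG RIP share the Input libraries in these ratios, so they are not separate evidence. The few H3 reads, 53 and 20 in Cnot3 RIP, 11 and 46 in IgG RIP and 81 and 63 in Input, limit the precision of the H3 ratio.

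For tests of single genes, 16 of the 68 histone genes passed the filter on low values (0.538 CPM in at least 2 libraries). They were 5 H1, 1 H2A, 4 H2B, 1 H3 and 5 H4 genes. Hist1h3b and Hist2h2ac are among the 18 genes above but did not pass. Each comparison used limma on log2 of scaled CPM plus 0.25 over 13010 genes, with a call at a Benjamini-Hochberg adjusted p under 0.05. Fold changes on this scale understate the change of low genes.

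Against IgG RIP, the comparison that separates what came down with Cnot3 from what came down with any antibody, none of the 16 histone genes was called. Over all genes 1.81% were called in this comparison, 1.54% higher and 0.277% lower in Cnot3 RIP. None of the 16 had an unadjusted p under 0.05 either, against 17.3% of all genes (6.33% in the lower direction), and edgeR's quasi-likelihood test and DESeq2 called none. The median log2 fold change was -0.16 over the 16 genes and 0.00 over all genes tested, with 9 genes below 0 and 7 above, where 50.3% of all genes were below 0. On the deposited CPM 5 were below 0 and 11 above, with a median of 0.14 where all genes had 0.30. Hist2h2be was the only gene whose groups did not overlap, with 2.64 and 2.46 CPM in Cnot3 RIP against 2.77 and 2.94 CPM in IgG RIP, while 21.8% of all genes were lower and 24% higher without overlap.

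The 2 lowest values in this comparison belonged to linker histones. Hist1h1d had 2.14 and 0.749 CPM in Cnot3 RIP and 2.08 and 3.31 CPM in IgG RIP, a limma log2 fold change of -0.90 (SE 0.43, adjusted p = 0.335). Hist1h1b had 3.28 and 0.360 CPM in Cnot3 RIP and 1.44 and 3.81 CPM in IgG RIP, a limma log2 fold change of -0.84 (SE 0.81, adjusted p = 0.698). In both genes the groups overlapped, and Cnot3 RIP 2 was the lowest library. Hist1h4c, an H4 gene, had 0.606 and 0.120 CPM in Cnot3 RIP and 0.404 and 0.680 CPM in IgG RIP (limma log2 fold change -0.47, SE 0.46, adjusted p = 0.704). Without Cnot3 RIP 1 the value of Hist1h1d was -1.50 and it was called lower, while without Cnot3 RIP 2 it was -0.26. Without Cnot3 RIP 2 the value of Hist1h1b was 0.43 and that of Hist1h4c was 0.14.

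The highest values belonged to core histones. Hist1h3f, the only H3 gene tested, had 0.534 and 0.0600 CPM in Cnot3 RIP and 0.115 and 0.0906 CPM in IgG RIP (limma log2 fold change 0.48, SE 0.50, adjusted p = 0.729). These are 15 and 2 reads in Cnot3 RIP and 2 reads in each IgG RIP library. Hist1h2bc, an H2B gene, had 3.85 and 2.61 CPM in Cnot3 RIP and 2.13 and 3.17 CPM in IgG RIP (limma log2 fold change 0.26, SE 0.30, adjusted p = 0.759). The groups overlapped in both genes. Hist1h4d, an H4 gene, had 1.35 and 0.809 CPM in Cnot3 RIP and 0.519 and 1.45 CPM in IgG RIP (limma log2 fold change 0.19, SE 0.47, adjusted p = 0.911). The 95% intervals allow sizeable differences either way, from -0.65 to 1.62 for Hist1h3f and from -0.41 to 0.93 for Hist1h2bc, so the data do not show that the groups were alike. Without Cnot3 RIP 1 the value of Hist1h3f was -0.17 and that of Hist1h4d -0.10, and without IgG RIP 1 those of Hist1h4d and Hist1h2bc were -0.41 and -0.03.

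Cnot3 RIP against Input asks which transcripts are over- or under-represented in the immunoprecipitate relative to the lysate. All 16 histone genes had a log2 fold change below 0, against 46.2% of all genes tested, and 1 of them, Hist3h2a, was called lower. Over all genes 8.32% were called in this comparison, 5.86% higher and 2.47% lower. On the deposited CPM 10 of the 16 values were below 0, while relative to the median of all genes 16 of 16 were lower under each of the 4 scalings tried. Taking values relative to that median removes most of a change in scaling, so the 4 scalings are not separate evidence. The median was -1.08 over the histone genes and 0.06 over all genes. The 2 groups did not overlap for 13 of the 16 genes, all lower in Cnot3 RIP, where 26.9% of all genes were lower and 30.6% higher without overlap. An unadjusted p under 0.05 was reached by 8 of the 16, against 27.2% of all genes, 11.8% in the lower direction.

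Hist3h2a encodes an H2A histone and is the only Hist3 gene among the 18. It had 0.962 and 0.809 CPM in Cnot3 RIP, 0.750 and 0.816 CPM in IgG RIP and 2.22 and 2.32 CPM in Input, from 13 to 48 reads per library. Both RIP groups were well below Input, with little spread in any group, and overlapped each other. The log2 fold change of Cnot3 RIP against Input was -1.15 (SE 0.30, limma adjusted p = 0.0497), or a level 0.450 times that of Input, and the value against IgG RIP was 0.13 (SE 0.30, limma adjusted p = 0.899). The call lies at the threshold and held in 4 of 18 alternatives. It was lost when any 1 library was left out (log2 fold changes from -1.24 to -1.04), with edgeR's quasi-likelihood test, with DESeq2's test on the recovered reads, with the replicate block, without a filter and on the deposited CPM (-0.23), among others. The gene at chr11:58954685-58956830 overlaps Trim17 on the same strand, so reads of the 2 genes could be shared between them by the counting.

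The lowest values against Input were found in an H2B, an H3 and an H4 gene. Hist2h2bb had 1.85 and 0.510 CPM in Cnot3 RIP, 0.865 and 2.31 CPM in IgG RIP and 4.16 and 3.43 CPM in Input. Its log2 fold change in Cnot3 RIP against Input was -1.67 (SE 0.52, limma adjusted p = 0.0788). Hist1h3f had 0.534 and 0.0600 CPM in Cnot3 RIP against 1.48 and 1.01 CPM in Input, a limma log2 fold change of -1.58 (SE 0.50, adjusted p = 0.0827). Neither gene overlapped between Cnot3 RIP and Input, and neither passed the threshold in limma. Hist1h4d had 1.35 and 0.809 CPM in Cnot3 RIP against 4.89 and 2.32 CPM in Input, a limma log2 fold change of -1.48 (SE 0.47, adjusted p = 0.0849). DESeq2 on the recovered reads called Hist2h2bb and Hist1h4d lower in this comparison, and not Hist3h2a.

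The values nearest 0 included the most read gene of the set. Hist1h1c, a linker histone gene, had 7.37 and 5.25 CPM in Cnot3 RIP, 5.77 and 8.56 CPM in IgG RIP and 7.76 and 10.1 CPM in Input. Its log2 fold change in Cnot3 RIP against Input was -0.49 (SE 0.29, limma adjusted p = 0.308). Hist1h2bc had 3.85 and 2.61 CPM in Cnot3 RIP against 5.08 and 4.88 CPM in Input (limma log2 fold change -0.61, SE 0.30, adjusted p = 0.219). None of the 3 genes nearest 0 overlapped between the groups. The third, Hist1h4h, had 1.28 and 1.14 CPM in Cnot3 RIP against 2.31 and 1.79 CPM in Input (limma log2 fold change -0.65, SE 0.31, adjusted p = 0.209). On the deposited CPM these values were 0.55 for Hist1h1c, 0.41 for Hist1h2bc and 0.28 for Hist1h4h.

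Control IgG RIP against Input compares RNA that came down with a control antibody with RNA of the lysate. Shifts made by the immunoprecipitation procedure cannot be told apart here from other differences between the libraries. All 16 histone genes were again below 0 on the scaled level, where 49.5% of all genes were, and none was called. On the deposited CPM 10 of 16 were below 0, and relative to the median of all genes 16 of 16 were lower under each of the 4 scalings. Here too the 4 scalings are not separate evidence. Over all genes 4.07% were called, 2.58% higher and 1.49% lower. The median was -0.84 over the histone genes and 0.01 over all genes tested. The groups did not overlap for 11 of the 16 genes, all lower in IgG RIP, where 29.3% of all genes were lower and 29.7% higher without overlap. An unadjusted p under 0.05 was reached by 7 of the 16, against 24.9% of all genes, 11.7% in the lower direction. edgeR's quasi-likelihood test called none and DESeq2 called 2, Hist1h3f and Hist1h4d.

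Hist1h3f had the lowest value, with 0.115 and 0.0906 CPM in IgG RIP against 1.48 and 1.01 CPM in Input. Its log2 fold change was -2.07 (SE 0.50, limma adjusted p = 0.0545). Hist1h3f passed the filter through Cnot3 RIP 1 and both Input libraries and through neither IgG RIP library, where it had 2 reads each. It was thus tested here through its level in the other groups, and the size of its fold change depends on the pseudocount. Hist1h4d had 0.519 and 1.45 CPM in IgG RIP against 4.89 and 2.32 CPM in Input (limma log2 fold change -1.67, SE 0.47, adjusted p = 0.0802). In both genes every IgG RIP value was below every Input value. Hist2h4, an H4 gene of the Hist2 cluster, had 0.634 and 0.951 CPM in IgG RIP against 2.59 and 1.98 CPM in Input (limma log2 fold change -1.29, SE 0.36, adjusted p = 0.0771), and 1.07 and 0.600 CPM in Cnot3 RIP. Hist3h2a stood at -1.29 (SE 0.30, limma adjusted p = 0.0502), just outside the threshold that it met in Cnot3 RIP.

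The genes nearest 0 here were all linker histones. Hist1h1e had 4.38 and 7.20 CPM in IgG RIP against 8.22 and 5.94 CPM in Input (limma log2 fold change -0.30, SE 0.46, adjusted p = 0.727). Hist1h1c stood at -0.32 (SE 0.29, limma adjusted p = 0.525) and Hist1h1d at -0.33 (SE 0.43, limma adjusted p = 0.671). In each of these 3 genes the groups overlapped, and on the deposited CPM the values were 0.43 for Hist1h1e, 0.41 for Hist1h1c and 0.37 for Hist1h1d. Hist1h1e overlaps the H2B gene Hist1h2be on the same strand. Hist1h2be had 0.463 and 0.510 CPM in Cnot3 RIP, 0.288 and 0.589 CPM in IgG RIP and 1.11 and 0.773 CPM in Input, and its reads may come from either gene.

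**Figure D3:**
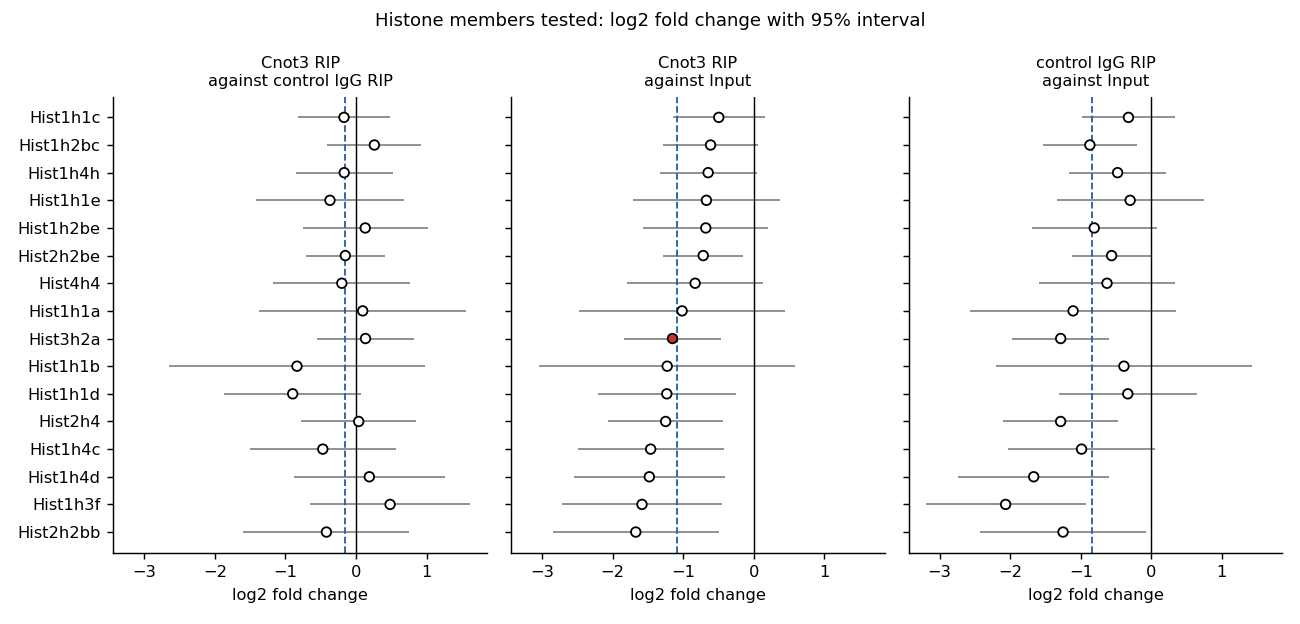
Log2 fold change (horizontal axis, with 95% interval) of the 16 histone genes tested in Cnot3 RIP against IgG RIP, Cnot3 RIP against Input and IgG RIP against Input; a filled point marks the 1 gene called, Hist3h2a, and the dashed line the median of the 16. All points lie below 0 in both comparisons with Input on the scaled level, though only 10 of 16 do on the deposited CPM, and they lie on both sides of 0 in Cnot3 RIP against IgG RIP.

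Compared per kilobase of annotated exon, the level of scaled CPM was highest for Hist2h2bb in Input, at 9.95 CPM per kilobase, against 3.10 in Cnot3 RIP and 4.17 in IgG RIP. Hist1h1c had 4.04 in Cnot3 RIP, 4.59 in IgG RIP and 5.74 in Input, and Hist1h1b had 2.45, 3.53 and 5.05 in these groups in the same order. At the low end Hist1h2be had 0.109 in Cnot3 RIP, 0.0987 in IgG RIP and 0.212 in Input. The annotated length enters these values directly. Hist1h1d, annotated with a transcript of 7425 bases, had only 0.194 in Cnot3 RIP, 0.363 in IgG RIP and 0.462 in Input.

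Within each group, most histone genes were higher in the same library of the pair. Of the 16 genes tested, 15 were higher in Cnot3 RIP 1 than in Cnot3 RIP 2, with a median log2 difference of 0.62, where all genes had -0.07. In IgG RIP 14 were higher in library 2, with a median of 0.54 where all genes had 0.01. In Input 11 were higher in library 1, with a median of 0.29 where all genes had -0.01. These are also the libraries with more Mki67, a gene of proliferating cells, which had 25.0 and 7.37 CPM in Cnot3 RIP, 14.7 and 26.5 CPM in IgG RIP and 23.4 and 6.28 CPM in Input. Top2a, a topoisomerase of dividing cells, had 12.5 and 5.28 CPM in Cnot3 RIP, 2.94 and 9.65 CPM in IgG RIP and 9.05 and 1.98 CPM in Input. Both genes were picked from the list of S phase and histone chaperone genes after their values were seen. Not all genes of that list followed them. Pcna, Mcm4, Ccne2 and Nasp were lower in the library with more Mki67 in both RIP groups, though higher there in Input. Mcm3, Mcm6, Rrm2, Ccna2 and Chaf1a went with Mki67 in all 3 groups. Whether the list as a set follows Mki67 was not tested. In all 3 groups 9 of the 16 histone genes (56.25%) were higher in the library with more Mki67. Of all 13009 genes tested besides Mki67, the histone genes included, 2150 were (16.5%). The 9 were Hist1h1a, Hist1h1b, Hist1h1d, Hist1h1e, Hist1h2bc, Hist2h2bb, Hist1h4d, Hist1h4h and Hist2h4.

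All 5 H1 genes tested were higher in Cnot3 RIP 1 and in IgG RIP 2, and 4 of the 5 in Input 1. Hist1h1b had 3.28 and 0.360 CPM in Cnot3 RIP, 1.44 and 3.81 CPM in IgG RIP and 5.82 and 1.69 CPM in Input, so that 1 library of each group was more than 2 times the other. Hist1h1a had 1.85 and 0.300 CPM in Cnot3 RIP, 0.346 and 1.45 CPM in IgG RIP and 2.12 and 1.74 CPM in Input. Hist2h2be and Hist3h2a varied least: Hist2h2be had 2.64 and 2.46 CPM in Cnot3 RIP, 2.77 and 2.94 CPM in IgG RIP and 4.06 and 4.64 CPM in Input.

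Markers of other cell types also moved between the libraries of a group. The 5 endothelial markers summed to 363 and 201 CPM in Cnot3 RIP, 213 and 343 in IgG RIP and 266 and 215 in Input. The 5 fibroblast markers summed to 477 and 271 CPM in Cnot3 RIP, 310 and 444 in IgG RIP and 398 and 355 in Input. The 4 smooth muscle and pericyte markers summed to 294 and 155 CPM in Cnot3 RIP, 163 and 299 in IgG RIP and 258 and 187 in Input. All 3 sums were higher in the libraries with more Mki67. Taken one by one, all 5 endothelial markers were higher there in each group. Of the fibroblast markers 4 of 5 were higher in Cnot3 RIP 1, 5 of 5 in IgG RIP 2 and 3 of 5 in Input 1. Of the smooth muscle and pericyte markers 4 of 4 were higher in Cnot3 RIP 1, 3 of 4 in IgG RIP 2 and 4 of 4 in Input 1. The sum of the 7 cardiomyocyte markers was lower in the libraries with more Mki67. It was 23524 and 25074 CPM in Cnot3 RIP, 34649 and 18742 in IgG RIP and 17604 and 20959 in Input. Taken one by one, 4 of the 7 were lower in Cnot3 RIP 1, 5 of 7 in IgG RIP 2 and 7 of 7 in Input 1. The 6 leukocyte markers summed to 51.7 and 34.5 CPM in Cnot3 RIP, 48.0 and 54.0 in IgG RIP and 39.3 and 44.8 in Input. The part of these cell types in the histone values was not tested.

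**Figure D4:**
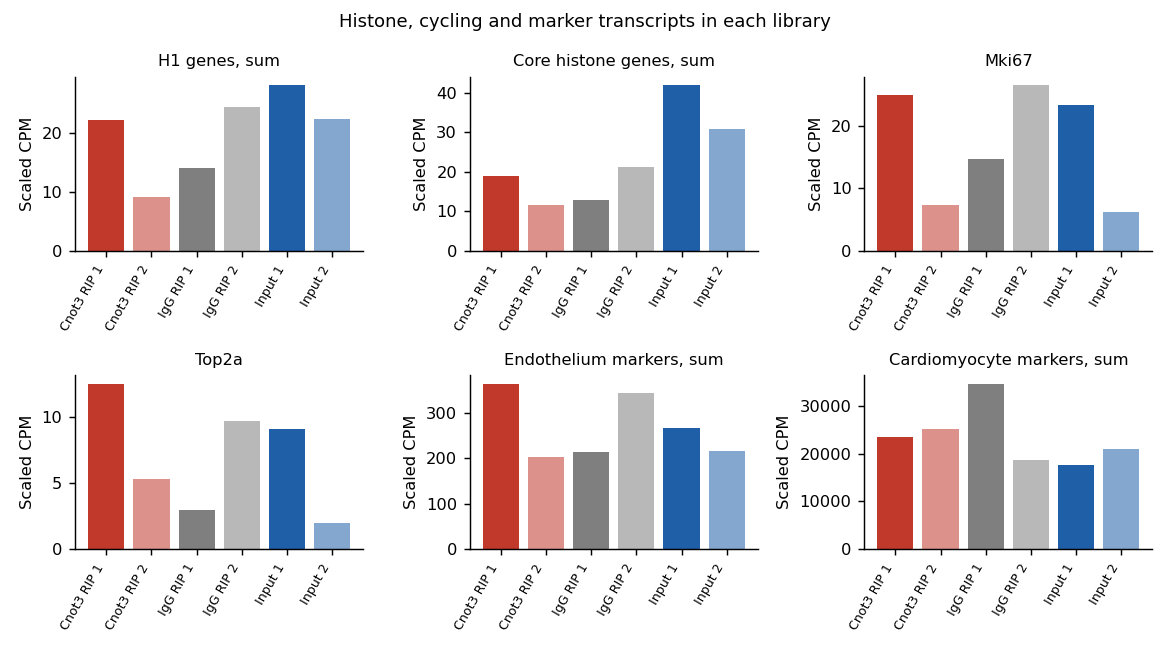
Summed scaled CPM of the H1 genes and of the core histone genes, and scaled CPM of Mki67, Top2a, the endothelial markers and the cardiomyocyte markers, one bar per library and one panel per measure. In Cnot3 RIP library 1, in IgG RIP library 2 and in Input library 1, the histone, Mki67, Top2a and endothelial bars are the taller of their pair, while the summed cardiomyocyte bars are the shorter.

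The factors that make and degrade histone mRNA were measured in the same libraries. None of the 11 tested genes of histone transcription and 3′ processing was called in any comparison, where 1.81%, 8.32% and 4.07% of all genes were called in Cnot3 RIP against IgG RIP, Cnot3 RIP against Input and IgG RIP against Input. Slbp, the stem-loop binding protein, had 3.42 and 3.90 CPM in Cnot3 RIP, 1.15 and 2.31 CPM in IgG RIP and 2.49 and 1.64 CPM in Input. Both Cnot3 RIP values lay above all others, with a limma log2 fold change of 1.04 (SE 0.35, adjusted p = 0.171) against IgG RIP and 0.78 (SE 0.35, limma adjusted p = 0.194) against Input. Npat, the activator of histone gene transcription, and its partner Casp8ap2 stood at 0.96 and 0.99 in Cnot3 RIP against Input (limma adjusted p = 0.0579 and 0.0559). The list's medians were 0.27 in Cnot3 RIP against IgG RIP, 0.27 in Cnot3 RIP against Input and 0.02 in IgG RIP against Input, beside 0.00, 0.06 and 0.01 over all genes.

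Of 14 tested genes of histone mRNA decay, 1 was called in Cnot3 RIP against Input, where 8.32% of all genes were. It was Dcp2, which encodes the decapping enzyme. Dcp2 had 37.7 and 61.7 CPM in Cnot3 RIP, 24.1 and 25.1 CPM in IgG RIP and 14.1 and 17.4 CPM in Input. It was higher in Cnot3 RIP than in Input by 1.61 on the log2 scale (SE 0.27, limma adjusted p = 0.0147), and the value against IgG RIP was 0.96 (SE 0.27, limma adjusted p = 0.112). The count of decay genes called in this comparison ran from 0 to 3 when 1 library was left out, 0 without Cnot3 RIP 2 or either Input library, and from 1 to 10 under the other settings (10 on the deposited CPM). The list's medians were -0.03, 0.08 and 0.13 in the 3 comparisons, in the order given for the processing factors.

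The replication-independent histone genes are made outside S phase as well and mostly carry poly(A) tails. Of 9 tested, none was called in Cnot3 RIP against IgG RIP or against Input, and 1, H2afv, was called lower in IgG RIP against Input, where 4.07% of all genes were called. H2afv, which encodes a variant of the H2A.Z type, had 6.66 and 6.74 CPM in Cnot3 RIP, 4.50 and 4.85 CPM in IgG RIP and 8.59 and 10.6 CPM in Input. The log2 fold change of IgG RIP against Input was -0.99 (SE 0.23, limma adjusted p = 0.0492). The count of 1 fell to 0 without either IgG RIP or either Input library, with the replicate block, with edgeR's quasi-likelihood test, without a filter, with a pseudocount of 0.1 and with library sizes without Rn45s. H3f3b, which encodes H3.3, had 22.1 and 28.9 CPM in Cnot3 RIP, 11.6 and 15.4 CPM in IgG RIP and 15.6 and 17.9 CPM in Input, a limma log2 fold change of 0.91 (SE 0.25, adjusted p = 0.106) in Cnot3 RIP against IgG RIP. The medians of these variants were 0.50 in Cnot3 RIP against IgG RIP, -0.06 in Cnot3 RIP against Input and -0.50 in IgG RIP against Input. Whether they differ from the replication-dependent genes was not tested.

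Of 24 tested genes of S phase and histone chaperones, 1 was called, Orc1, a subunit of the origin recognition complex, in IgG RIP against Input, where 4.07% of all genes were. Orc1 had 0.463 and 0.929 CPM in Cnot3 RIP, 1.61 and 0.997 CPM in IgG RIP and no read and 2 reads in the Input libraries. Orc1 passed the filter through RIP libraries alone and its Input level rests on 2 reads, so no fold is given. The count of 1 fell to 0 without either IgG RIP or either Input library. The medians of this list were -0.05 in Cnot3 RIP against IgG RIP, 0.14 in Cnot3 RIP against Input and 0.26 in IgG RIP against Input. The S phase genes had medians above 0 in both comparisons with Input, where the histone genes had medians of -1.08 and -0.84.

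The number of reads a histone gene received went with how much of its sequence is its own. A 50-base stretch of a transcript was counted as its own when no gene elsewhere in the annotation held the same letters. The share of such stretches had a median of 91.6% over the 18 genes with at least 0.5 CPM in 2 columns, of 46.8% over the 38 low genes and of 10.8% over the 12 genes with no read. Among the 12, 8 had a share under 15%. Hist1h2bq and Hist1h2br, a near-identical pair of H2B genes, had 2.68% and 11.3% and no read, and Hist2h2aa2 had no stretch of its own and no read. Hist1h2aa was the clearest exception, with 97.7% and no read, and Hist2h3c1 had 65.3% and no read. How the authors' counting treated reads that map to several genes is not given in the sources used here, so a 0 for the genes with few stretches of their own does not show that they were silent.

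Genes at the top also shared sequence in part. Hist1h3f had 50.7% of its stretches to itself and shares the rest mainly with Hist1h3e, which had 8 and 8 reads in Cnot3 RIP, 1 and 5 in IgG RIP and 16 and 11 in Input. Hist1h4h had 54.2% and Hist1h2bc 69.4%, while Hist1h1b and Hist2h2bb had 100%. Genes that lie over a member were not counted as elsewhere. Hist2h2bb overlaps Gm42743 on the same strand, so its reads may come from either gene. Transcript length differed as well, with a median of 1208.5 bases over the 18 genes, 480.5 over the 38 low genes and 557 over the 12 genes with no read. Of the 18 genes 13 held the stem-loop in an annotated transcript, and in 10 of these that transcript ran more than 100 bases past it. Among the 38 low genes 22 held it, and 9 of these ran on as far. If reads shared between copies were dropped in the counting, the class sums and shares above lack them too.

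**Figure D5:**
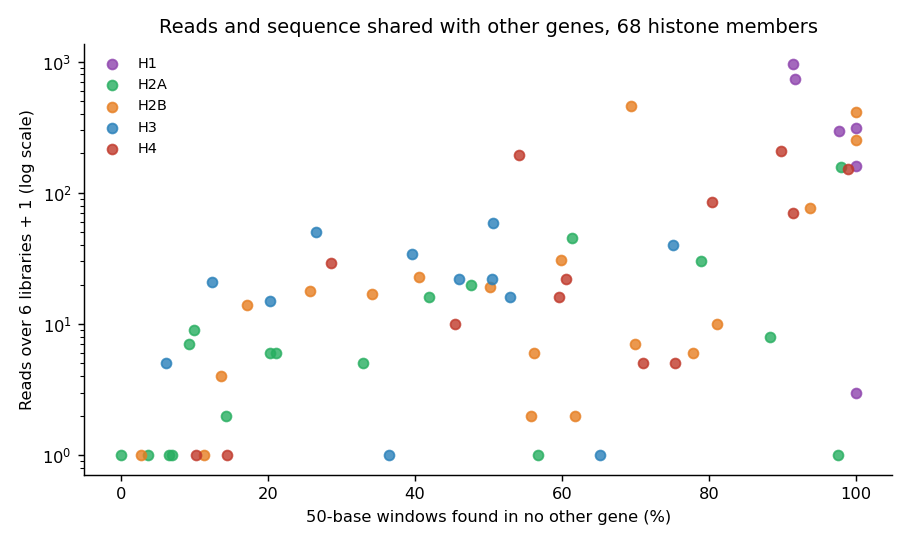
Reads over all 6 libraries plus 1 (vertical axis, log scale) against the share of 50-base stretches found in no gene elsewhere (horizontal axis, percent) for the 68 histone genes, coloured by class. The genes with no read sit at the bottom, 8 of 12 of them under 15%, and every gene with over 100 reads has more than 50%.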

How the data were processed

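The authors deposited RNA sequencing of 6 libraries (Cnot3 RIP, control IgG RIP, Input, 2 of each) as 1 table of CPM per gene symbol, with Rn45s included in the library total. Per the submitters' processing notes the tools included TopHat2 2.1.0, Bowtie2 2.2.5, CASAVA 1.8, edgeR and FastQC, with mm10 as genome. Read counter, annotation, library kit and strand setting: not given in the sources used here. The labels gave groups and replicate numbers.

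Steps between low values gave whole reads for 100% of the values (within 0.01 read). After TMM scaling (edgeR 4.0.16) and a log2 transform with a pseudocount of 0.25, limma 3.58.1 with a variance trend (R 4.3.3) was run with all 6 libraries, 3 group means and no block. filterByExpr at a minimum count of 10 kept 13010 of 24421 genes, and adjusted p-values run over all of them. edgeR's quasi-likelihood test on the recovered reads made 242 higher and 54 lower calls over all genes when Cnot3 RIP was set against control IgG RIP. A gene at 0 allows up to 3 reads, 0.0899 to 0.277 scaled CPM per library.

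The members and lists (processing factors, decay factors, replication-independent histones, S phase genes, cell markers) were chosen with earlier results of these data known. Full statistics are given for members called and for the 3 highest and 3 lowest per comparison. From each list Slbp and up to 3 genes of smallest p per comparison could be named. Hist2h2be, Hist1h2be, Hist1h1a, Hist1h3e, Mki67, Top2a, Mcm3, Nasp and the exceptions among genes with few reads were named after their values were seen. So were Pcna, Mcm4, Mcm6, Ccne2, Rrm2, Ccna2 and Chaf1a. Stem-loops, coordinates and 50-base stretches came from GENCODE M21 transcripts (GRCm38), matched by symbol. The fitting steps were tested on simulated data. Alternatives were other scalings, pseudocounts, filters, DESeq2 1.42.0, the replicate block and leaving out each library.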

Additional observations from a re-analysis of the deposited data

How the results depend on the processing

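The low median of the histone genes against Input, taken relative to the median of all genes, kept its direction in all 18 alternatives. It was -1.14 in Cnot3 RIP against Input (range -1.43 to -0.58) and -0.85 in IgG RIP against Input (-1.22 to -0.39). Alternatives that change only the scaling or add a replicate block could hardly move this value. Not relative to all genes, the deposited CPM gave medians of -0.18 and -0.20 and log2 ratios of sums of 0.11 and 0.050 in these comparisons, and no filter gave medians of -0.51 and -0.34. Leaving out 1 library gave ratios of sums from -1.56 to -0.58 in Cnot3 RIP against Input and from -1.20 to -0.45 in IgG RIP against Input. In Cnot3 RIP against IgG RIP they ran from -0.79 to 0.20, and the median of the members from -0.47 to 0.32.

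Counts of histone genes called moved more. In Cnot3 RIP against Input the count of 1 became 0 with the deposited CPM, with library sizes without Rn45s, with a pseudocount of 0.1, with edgeR's quasi-likelihood test and with only the 4 libraries compared, 2 with DESeq2, and 0 to 7 without 1 library (7 without Cnot3 RIP 1). In IgG RIP against Input the count of 0 became 2 with a pseudocount of 1, 1 with a filter at 0.5 CPM in 2 columns, 2 with DESeq2, 2 with only the 4 libraries compared, and 0 to 2 without 1 library. In Cnot3 RIP against IgG RIP it was 0, and 0 to 1 without 1 library. The labels do not say that a shared number marks a shared animal or day, and deviations of same-numbered libraries correlated at -0.32 for Cnot3 RIP with IgG RIP, 0.34 for Cnot3 RIP with Input and -0.33 for IgG RIP with Input. The replicate block gave 0 histone genes in each comparison. A crossed pairing with the IgG RIP numbers swapped, chosen after seeing the data, gave 0, 8 and 6. The cause of these changes was not tested.

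On the deposited CPM 6 of the 16 genes changed sign in Cnot3 RIP against Input (Hist1h4h to 0.28, Hist1h2bc to 0.41, Hist1h1c to 0.55, and Hist1h2be, Hist1h1e and Hist2h2be) and 6 in IgG RIP against Input (Hist1h1d to 0.37, Hist1h1c to 0.41, Hist1h1e to 0.43, and Hist1h1b, Hist1h4h and Hist2h2be). In Cnot3 RIP against IgG RIP Hist1h4h, Hist1h1c, Hist2h2be and Hist4h4 did. Without 1 library Hist1h1e ran in IgG RIP against Input from -0.64 to 0.024 (without IgG RIP 1). In Cnot3 RIP against IgG RIP, leaving out 1 library gave Hist1h4d -0.41 to 0.75 (-0.10 without Cnot3 RIP 1), Hist1h3f -0.17 to 1.13, Hist1h1b -2.06 to 0.43, Hist1h4c -1.03 to 0.14 and Hist1h2bc -0.029 to 0.53. Over all genes, calls in Cnot3 RIP against IgG RIP ran from 0 (without IgG RIP 1) to 1306 (without Cnot3 RIP 1) around 236, in Cnot3 RIP against Input from 12 to 7759 around 1083, and in IgG RIP against Input from 20 to 4393 around 530. Histone genes with fewer than 10 reads in most libraries are at the limit of what this depth resolves.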
